A study of Homo sapiens with 14 samples.

Results

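The transcripts of 10 genes of the DNA damage checkpoint were followed in SCC23 cells, an established HNSCC line, among the 59471 gene names counted in 14 RNA-seq libraries. They were chosen by name: the kinases ATR, ATM, PRKDC (the catalytic subunit of DNA-PK) and SMG1, the checkpoint kinases CHEK1 and CHEK2, the mitotic inhibitor WEE1, and the ATR partners ATRIP, TOPBP1 and CLSPN. KMT2D-WT cells had received Cas9 with a guide against LacZ and KMT2D-KO cells Cas9 with a guide against KMT2D. The guide differed between the KMT2D-KO lines KO1 and KO2. Cells of both genotypes were either kept in high glucose (+Glc) or deprived of glucose for 6 h (-Glc). Each glucose condition held 3 KMT2D-WT and 4 KMT2D-KO libraries from 2 experiments, with 1 library labelled as line KO1 and 1 as line KO2 in each experiment. The lines were grown from sorted cells, and the methods describe no cloning of single cells. The paper calls the 2 RNA-seq experiments independent. Nothing in the labels says whether the libraries of 1 group within 1 experiment came from separate cultures, so p-values measure the spread between these libraries.

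ATR, ATM, DNA-PK and SMG1 are large serine/threonine kinases of the same family. ATR is recruited with ATRIP to single-stranded DNA coated by RPA at stalled replication forks, is switched on by TOPBP1, and passes the signal through claspin (CLSPN) to CHK1, the product of CHEK1. ATM answers double-strand breaks and activates CHK2, the product of CHEK2. CHK1 and WEE1 both hold cyclin-dependent kinases inactive, CHK1 by restraining the CDC25 phosphatases and WEE1 by phosphorylating CDK1, while SMG1 phosphorylates UPF1 in nonsense-mediated mRNA decay. These kinases act largely through protein phosphorylation, which RNA counts do not measure.

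The libraries held between 15669154 and 62968057 counts, and in 4 of them, those of experiment 2 in glucose, both mates of each pair had been counted. Levels below are CPM, counts relative to a fixed library size after TMM scaling. Squamous markers were high (ITGB4 from 724 to 1517 CPM over the 14 libraries), 9 of 10 squamous markers reached a mean of 1 CPM in every group, and the 5 blood cell markers summed to at most 1.10 CPM. The 5 fibroblast markers summed to between 3.20 and 7.04 CPM in KMT2D-WT and between 7.20 and 25.9 CPM in KMT2D-KO libraries, with LUM at no more than 0.270 CPM, and the 3 endothelial markers to at most 1.18 and 4.11 CPM. Without glucose, 5 of 10 squamous markers were higher in KMT2D-KO cells and 0 lower, beside 25.9% and 24.9% of all genes tested. The higher ones included KRT5 (log2 fold change 2.86 ± 0.79), KRT17 (2.16 ± 0.39) and CDH1 (1.53 ± 0.39). With the close pairs described below summed none of the 10 was called. In glucose, 3 of 9 tested squamous markers were lower and 0 higher, beside 11.7% and 13.0% of all genes. There KRT5 (1.44), KRT17 (-0.41) and CDH1 (0.74) were not called. The fibroblast marker COL1A1 was higher in KMT2D-KO cells in glucose (log2 fold change 1.26, adjusted p = 9.06e-04) and without it (1.33, adjusted p = 3.98e-04). In glucose, 3 of 5 fibroblast markers had enough counts to be tested, and all 3 were called higher. There 1 fibroblast marker reached a mean of 1 CPM in KMT2D-WT cells and 3 did in KMT2D-KO cells. The endothelial marker CDH5 was higher without glucose (2.24, adjusted p = 0.00143), and with those pairs summed COL1A1 (1.32, adjusted p = 0.0250) and CDH5 (2.25, adjusted p = 0.0309) were still called. The part of these differences in the results below was not tested. The RNA level of KMT2D itself did not follow the labels. In glucose it was 279, 266 and 271 CPM in KMT2D-WT libraries, 182 and 184 CPM in line KO1 and 323 and 373 CPM in line KO2 (log2 fold change -0.02 ± 0.25, SE, adjusted p = 0.967). Without glucose it was between 231 and 239 CPM in KMT2D-WT libraries, 19.9 CPM in the library labelled KO1 of experiment 1 and from 145 to 190.2 CPM in the other 3 KMT2D-KO libraries (log2 fold change -0.90 ± 0.60, adjusted p = 0.247, and -0.97 with pairs summed, adjusted p = 0.455). For these lines the paper reports mutations in KMT2D by genomic sequencing and the loss of its protein by western blot. RNA counts per gene measure neither, and the edited site was not examined here.

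Several -Glc libraries stood apart. Among 39 genes that separated the lines in glucose, the library labelled KO1 of experiment 2 without glucose lay a median of 0.53 log2 units from KO2 and 3.75 from KO1, so it went against its label. It and the library labelled KO2 of that experiment differed by only 1.88 times the squared difference that counting error gives (mean over genes), and the 2 KMT2D-WT libraries of that experiment by 1.79 times, whereas all other pairs of a group differed by between 29.9 and 256 times. These 2 close pairs are not shown to be independent samples, and the calls among the 10 genes that use -Glc libraries are therefore also given with each pair summed to 1 library ("pairs summed"). In the library labelled KO1 of experiment 1 without glucose, genes with more than 16000 exonic bases lay a median of 0.54 log2 units below the KMT2D-WT library of that experiment (456 genes, median log2 difference -0.54), against -0.14 to -0.06 in the 7 other KMT2D-KO libraries. Between genotypes without glucose, a fit that leaves this library out takes its spread mainly from the close pairs, so its adjusted p counts libraries not shown to be independent. With pairs also summed, that fit holds 4 libraries and 1 residual degree of freedom, and its adjusted p rests on the spread shared across genes. Long genes were also higher in experiment 2 than in experiment 1 in every group, by a median of 0.25 to 0.48 on the log2 scale, and experiment was a covariate of every fit.

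**Figure D1:**
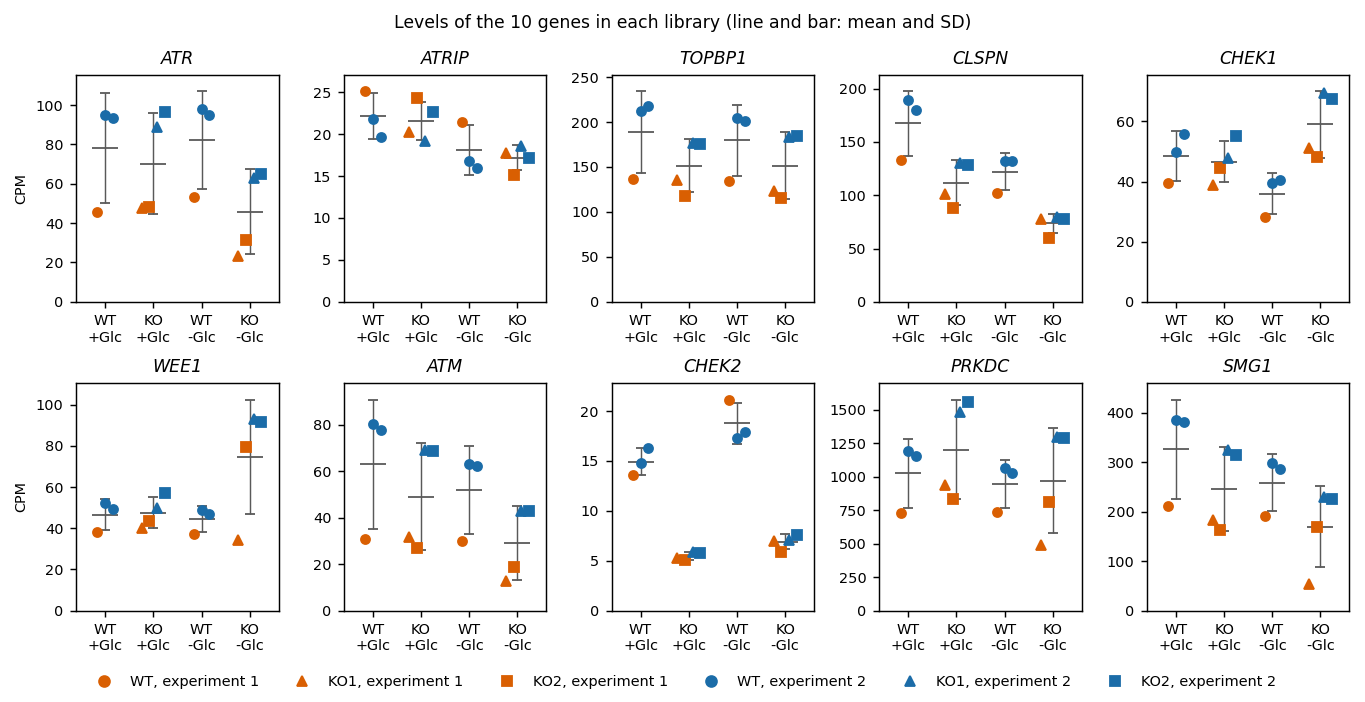
Level of each of the 10 genes in CPM (vertical axis from 0, 1 panel a gene) in KMT2D-WT and KMT2D-KO cells with (+Glc) and without glucose (-Glc). Each point is a library, with colour for the experiment and shape for the labelled line, and the horizontal line and bar are the mean and SD of the group. CHEK2 was lower in every KMT2D-KO library, from 5.03 to 7.62 CPM, than in every KMT2D-WT library, from 13.6 to 21.1 CPM.

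Expressed per kilobase of the canonical transcript, PRKDC was the most abundant of the 10 transcripts, with a mean of 77.4 CPM per kb over the 14 libraries, followed by TOPBP1 with 28.8 CPM per kb. PRKDC was the highest of the 10 in all 14 libraries, and TOPBP1 was above each of the other 8 in 13 of 14, with WEE1 above it in the library labelled KO2 of experiment 1 without glucose. SMG1, WEE1, CLSPN and CHEK1 followed with means from 11.7 to 15.2 CPM per kb, and SMG1 was above WEE1 in 9 of 14 libraries, WEE1 above CLSPN in 6 and CLSPN above CHEK1 in 9, so these neighbours were not separated beyond their spread. ATR had a mean of 8.27 CPM per kb and was below CHEK1 in 12 of 14 libraries. CHEK2 (5.83), ATRIP (4.30) and ATM (3.64 CPM per kb) were the lowest and changed places between libraries.

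Between KMT2D-KO and KMT2D-WT cells without glucose, ATR, ATM, CLSPN and CHEK2 were lower and CHEK1 and WEE1 higher in KMT2D-KO cells. With all 10 genes past the filter on low counts in each comparison, this is 4 of 10 genes lower, where 24.9% of the 16782 genes tested were called lower, and 2 of 10 higher, where 25.9% were called higher. The number of calls is thus no result about these genes. The median log2 fold change of the 10 was -0.36, against 0.00 over all genes tested. With pairs summed, 7.52% of genes were called lower and 8.99% higher, and ATR, CHEK2 and CHEK1 were the 3 genes still called. With no experiment covariate, CLSPN and CHEK2 were the 2 genes called.

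In glucose, CHEK2, CLSPN and SMG1 were lower and PRKDC was higher in KMT2D-KO cells. Here 3 of 10 genes were lower, beside 11.7% of the 20423 genes tested, and 1 of 10 was higher, beside 13.0%. The median log2 fold change of the 10 genes was -0.10, against 0.02 over all genes. With no experiment covariate CHEK2 alone was called. The change of the KMT2D-KO effect with glucose was tested in 1 fit of all 14 libraries and was called for ATR (lower) and CHEK1 (higher), where 6.54% of 18678 genes were called in the lower and 4.73% in the higher direction. With pairs summed these shares were 0.912% and 0.314%, and CHEK1 was the 1 gene of the 10 still called, while with no experiment covariate none was.

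**Figure D2:**
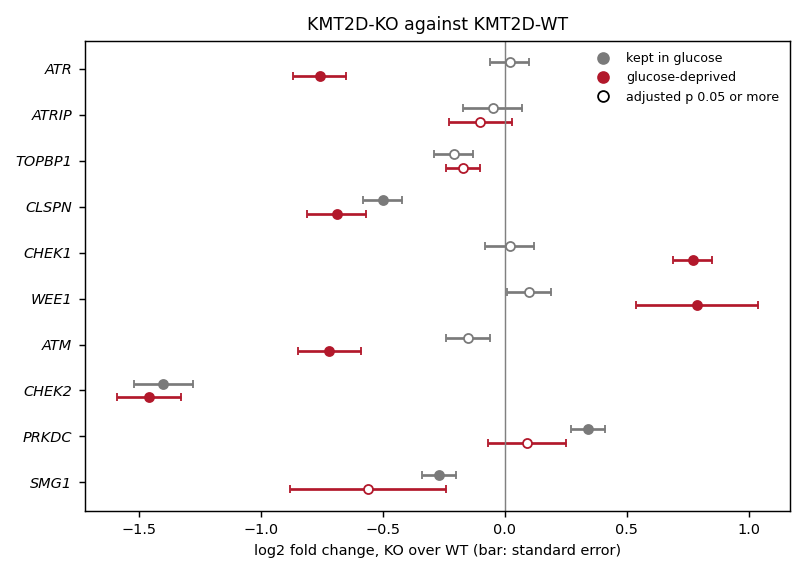
Log2 fold change of KMT2D-KO over KMT2D-WT cells (horizontal axis, bar: standard error) for the 10 genes in glucose (grey) and without glucose (red), with filled points for adjusted p under 0.05. ATR and CHEK1 lay at 0.02 in glucose and at -0.76 and 0.77 without it, whereas CHEK2 lay at -1.40 and -1.46.

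ATR, the kinase of stalled forks, lies on chromosome 3 (GRCh38 142449007 to 142578733, minus strand). In glucose its level was 45.7 CPM in the KMT2D-WT library of experiment 1 and 94.8 and 93.4 CPM in those of experiment 2. The KMT2D-KO libraries in glucose had 47.8 and 48.4 CPM in experiment 1 and 88.7 and 96.3 CPM in experiment 2. Within each experiment the genotypes thus lay side by side in glucose, and the log2 fold change was 0.02 ± 0.08 (SE, adjusted p = 0.894).

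Without glucose, ATR was 53.4 CPM in the KMT2D-WT library of experiment 1 and 23.3 and 31.4 CPM in the KMT2D-KO libraries. In experiment 2 it was 97.8 and 95.1 CPM in KMT2D-WT and 63.2 and 65.2 CPM in KMT2D-KO libraries. Every KMT2D-KO library was below every KMT2D-WT library of its experiment, although the groups overlapped across experiments. The log2 fold change was -0.76 ± 0.11 (1.69-fold lower, adjusted p = 0.00130). It was -0.80 with pairs summed (adjusted p = 0.0424), -0.47 with offsets for gene length (adjusted p = 0.00148), and between -0.81 and -0.64 when any 1 library was left out.

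The KMT2D-KO effect on ATR differed between glucose conditions by -0.75 ± 0.15 on the log2 scale (adjusted p = 0.0102). This difference was not called with pairs summed (-0.81, adjusted p = 0.0688), nor without the KMT2D-WT library of experiment 1 of either glucose condition (adjusted p up to 0.0634). A total of 9.34% of the exonic bases of ATR are shared with 2 noncoding genes, AC109992.1 and AC109992.2, which had 0 and 64 counts over the 14 libraries.

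The 250 bases before the RefSeq start sites of ATR and of CLSPN are shown because ATR was called lower in KMT2D-KO cells without glucose alone and CLSPN in both conditions. ATR's stretch is chr3:142578734-142578983 (GRCh38.p14, minus strand, 69.6% G or C), and CLSPN's is chr1:35769979-35770228 (minus strand, 66.0% G or C). Capitals mark the searched motifs that were found on either strand, GGGCGG (GC box) and CCAAT, of which 1 pair overlaps by 2 bases in CLSPN. The sequences run 5′ to 3′ along the gene.
ATR: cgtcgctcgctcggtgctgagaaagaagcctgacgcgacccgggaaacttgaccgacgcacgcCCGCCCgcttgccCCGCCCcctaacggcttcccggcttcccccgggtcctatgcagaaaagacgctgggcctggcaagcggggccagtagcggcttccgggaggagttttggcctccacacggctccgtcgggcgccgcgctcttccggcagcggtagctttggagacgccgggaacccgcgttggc
CLSPN: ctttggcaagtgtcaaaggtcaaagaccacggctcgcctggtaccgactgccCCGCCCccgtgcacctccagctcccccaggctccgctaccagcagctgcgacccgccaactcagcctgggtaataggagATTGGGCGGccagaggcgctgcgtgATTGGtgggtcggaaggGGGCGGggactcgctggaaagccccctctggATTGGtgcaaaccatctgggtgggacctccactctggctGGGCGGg

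GGGCGG was found 2 times in the ATR stretch and 4 times in that of CLSPN, and 42.6% of the 35116 RefSeq promoters hold it in these 250 bases. CCAAT was found 3 times in CLSPN and not in ATR, and 32.0% of promoters hold it. The E2F sequences TTTCGCGC and TTTGGCGC, found in 0.439% and 0.550% of promoters, were in neither, nor were CACGTG and TGACGTCA. A match of letters is a description of the window and no evidence of binding. Promoters of 8 of the 10 genes were in the RefSeq table.

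CLSPN encodes claspin, the adaptor that brings CHK1 to ATR (chromosome 1, 35720218 to 35769978, minus strand). Its level in glucose was 133, 189 and 180.2 CPM in KMT2D-WT libraries and 101, 87.6, 130.4 and 128 CPM in KMT2D-KO libraries. Without glucose it was 102, 132 and 132 CPM in KMT2D-WT and 77.3, 60.3, 79.2 and 77.6 CPM in KMT2D-KO libraries. The groups did not overlap in either condition. CLSPN was 1.42-fold lower in KMT2D-KO cells in glucose (log2 fold change -0.50 ± 0.08, adjusted p = 0.00201) and 1.62-fold lower without it (-0.69 ± 0.12, adjusted p = 0.00310). With pairs summed the second value was -0.64 and was not called (adjusted p = 0.0759).

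ATRIP and TOPBP1, which recruit and activate ATR, were called in neither KMT2D-KO comparison. ATRIP, the partner that binds RPA-coated DNA, ranged from 15.1 to 25.1 CPM over all 14 libraries, with log2 fold changes of -0.05 ± 0.12 in glucose (adjusted p = 0.790) and -0.10 ± 0.13 without it (adjusted p = 0.557, and -0.16 with pairs summed, adjusted p = 0.580). Its exons share 26.7% of their bases with TREX1, for which 0 counts are listed in all libraries, so the counts of the 2 genes are uncertain. TOPBP1, the activator, ranged from 116 to 218 CPM. Its log2 fold change was -0.21 ± 0.08 in glucose (adjusted p = 0.0932) and -0.17 ± 0.07 without it (adjusted p = 0.0721), and experiment 2 alone gave -0.19 without glucose (adjusted p = 3.89e-06), where both groups are close pairs. With pairs summed the value was -0.15 (adjusted p = 0.429). Without the library labelled KO1 of experiment 1 it was -0.20 (adjusted p = 2.18e-05), and -0.19 with pairs also summed (adjusted p = 0.00272).

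CHEK1, which encodes the kinase downstream of ATR, moved the opposite way to ATR (chromosome 11, 125625665 to 125676255, plus strand). In glucose it was 39.5, 49.9 and 55.8 CPM in KMT2D-WT and 39.0, 44.4, 48.0 and 55.2 CPM in KMT2D-KO libraries, which overlapped (log2 fold change 0.02 ± 0.10, adjusted p = 0.932). Without glucose it was 28.1, 39.4 and 40.5 CPM in KMT2D-WT and 51.0, 48.1, 69.3 and 67.6 CPM in KMT2D-KO libraries. All 4 KMT2D-KO libraries were above all 3 KMT2D-WT libraries.

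That difference was 1.71-fold (log2 0.77 ± 0.08, adjusted p = 3.37e-04), and it was 0.80 with pairs summed (adjusted p = 0.0304) and 0.84 with length offsets. Against the KMT2D-WT mean of its own experiment, each KMT2D-KO library without glucose was higher by 0.76 to 0.86 on the log2 scale. The KMT2D-KO effect on CHEK1 differed between glucose conditions by 0.78 ± 0.12 (adjusted p = 0.00277), and this was called in every fit with 1 library left out and with pairs summed (adjusted p = 0.0471).

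WEE1 encodes the kinase that phosphorylates CDK1 to hold back mitosis (chromosome 11, 9573670 to 9593457). In glucose its levels overlapped, from 38.1 to 52.1 CPM in KMT2D-WT and from 39.9 to 57.3 CPM in KMT2D-KO libraries. Without glucose it was 37.1, 49.0 and 47.0 CPM in KMT2D-WT libraries, 79.7, 92.9 and 91.8 CPM in 3 KMT2D-KO libraries and 34.2 CPM in the library labelled KO1 of experiment 1. The group difference was 0.79 ± 0.25 on the log2 scale (1.73-fold, adjusted p = 0.0333).

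This call was lost in 6 of 7 fits with 1 library left out, at adjusted p values up to 0.107, and with pairs summed (0.75, adjusted p = 0.208). Without the library labelled KO1 of experiment 1 the value was 0.95 (adjusted p = 4.60e-12), and 0.99 with pairs also summed. The change of the KMT2D-KO effect with glucose was 0.72 ± 0.29 and was not called (adjusted p = 0.129, and 0.67 with pairs summed, adjusted p = 0.362), except without the library labelled KO1 of experiment 1, with length offsets or with no filter on low counts.

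ATM, the kinase of double-strand breaks, lies on chromosome 11 (108222832 to 108369102, plus strand). In glucose it was 31.0 CPM in KMT2D-WT and 31.5 and 26.9 CPM in KMT2D-KO libraries of experiment 1, and 80.2 and 77.7 CPM beside 69.1 and 68.6 CPM in experiment 2 (log2 fold change -0.15 ± 0.09, adjusted p = 0.258). Without glucose, ATM was 30.0 CPM in the KMT2D-WT library of experiment 1 and 12.6 and 18.7 CPM in KMT2D-KO libraries. In experiment 2 it was 63.1 and 62.5 CPM in KMT2D-WT and 42.9 and 42.7 CPM in KMT2D-KO libraries.

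As for ATR, every KMT2D-KO library without glucose lay below the KMT2D-WT libraries of its experiment. ATM was 1.65-fold lower (log2 -0.72 ± 0.13, adjusted p = 0.00324), and -0.45 with length offsets (adjusted p = 0.00261). The call was lost with pairs summed (-0.77, adjusted p = 0.0620). The KMT2D-KO effect differed between glucose conditions by -0.55 ± 0.18, which was not called (adjusted p = 0.0640), nor with pairs summed (-0.61, adjusted p = 0.195). It was called with length offsets (-0.41, adjusted p = 0.0269) and without either KMT2D-KO library of experiment 1 without glucose (-0.43 and -0.60), but without that labelled KO1 and with pairs also summed it was not (-0.47, adjusted p = 0.0641).

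CHEK2, whose product CHK2 is activated by ATM, was the gene of the 10 with the largest difference between genotypes, in both glucose conditions (chromosome 22, 28687743 to 28742422, minus strand). In glucose it was 13.6, 14.8 and 16.3 CPM in KMT2D-WT and 5.28, 5.03, 5.88 and 5.78 CPM in KMT2D-KO libraries. Without glucose it was 21.1, 17.3 and 17.9 CPM in KMT2D-WT and 7.02, 5.83, 7.12 and 7.62 CPM in KMT2D-KO libraries. The groups were far from overlapping in either condition, in both experiments and under both line labels.

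CHEK2 was 2.65-fold lower in glucose (log2 -1.40 ± 0.12, adjusted p = 1.23e-04) and 2.75-fold lower without it (-1.46 ± 0.13, adjusted p = 2.11e-04). With pairs summed the second value was -1.51 (adjusted p = 0.0212). The effects in the 2 conditions differed by -0.03 ± 0.18 (adjusted p = 0.931, and -0.10 with pairs summed, adjusted p = 0.872). CHEK2 shares 6.52% of its exonic bases with HSCB on the opposite strand, and the counting ignored strand. The 5 pseudogenes named after CHEK2 had 6 counts in all, beside 5311 for CHEK2.

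PRKDC encodes the catalytic subunit of DNA-PK, which joins broken ends with the Ku proteins (chromosome 8, 47773111 to 47960178). In glucose it was 728 CPM in KMT2D-WT and 936 and 833 CPM in KMT2D-KO libraries of experiment 1, and 1193 and 1153 CPM beside 1482 and 1553 CPM in experiment 2. Every KMT2D-KO library was thus above the KMT2D-WT libraries of its experiment, by 1.27-fold (log2 0.34 ± 0.07, adjusted p = 0.0100). The call was lost without the KMT2D-WT library of experiment 1 (adjusted p = 0.0723). Without glucose PRKDC was 486 CPM in the library labelled KO1 of experiment 1, beside 735 CPM in KMT2D-WT, and between 809.9 and 1293 CPM in the other KMT2D-KO libraries (log2 0.09 ± 0.16, adjusted p = 0.685, and 0.02 with pairs summed, adjusted p = 0.958). Without the library labelled KO1 of experiment 1 the value was 0.22 (adjusted p = 2.03e-06), and 0.21 with pairs also summed (adjusted p = 8.23e-06), in the fits with the limits given above.

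SMG1, the kinase of nonsense-mediated decay, was 1.20-fold lower in KMT2D-KO cells in glucose (log2 -0.27 ± 0.07, adjusted p = 0.0281; chromosome 16, 18804860 to 18926408). The levels were 211 CPM in KMT2D-WT and 184 and 163 CPM in KMT2D-KO libraries of experiment 1, and 385 and 382 CPM beside 324 and 314 CPM in experiment 2. This call was lost in 6 of 7 fits with 1 library left out and with length offsets (-0.17, adjusted p = 0.113). Without glucose SMG1 was 54.3 CPM in the library labelled KO1 of experiment 1, against 192 CPM in KMT2D-WT cells, and 169, 229.6 and 226 CPM in the other KMT2D-KO libraries (log2 -0.56 ± 0.32, adjusted p = 0.187, and -0.61 with pairs summed, adjusted p = 0.390). It was called without the library labelled KO1 of experiment 1 (-0.34, adjusted p = 7.63e-07, and -0.30 with pairs also summed, adjusted p = 3.71e-06) and without that labelled KO2 (-0.86, adjusted p = 0.0422). The 7 SMG1 pseudogenes had 7.92% as many counts as SMG1, and reads may have been divided between them.

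**Figure D3:**
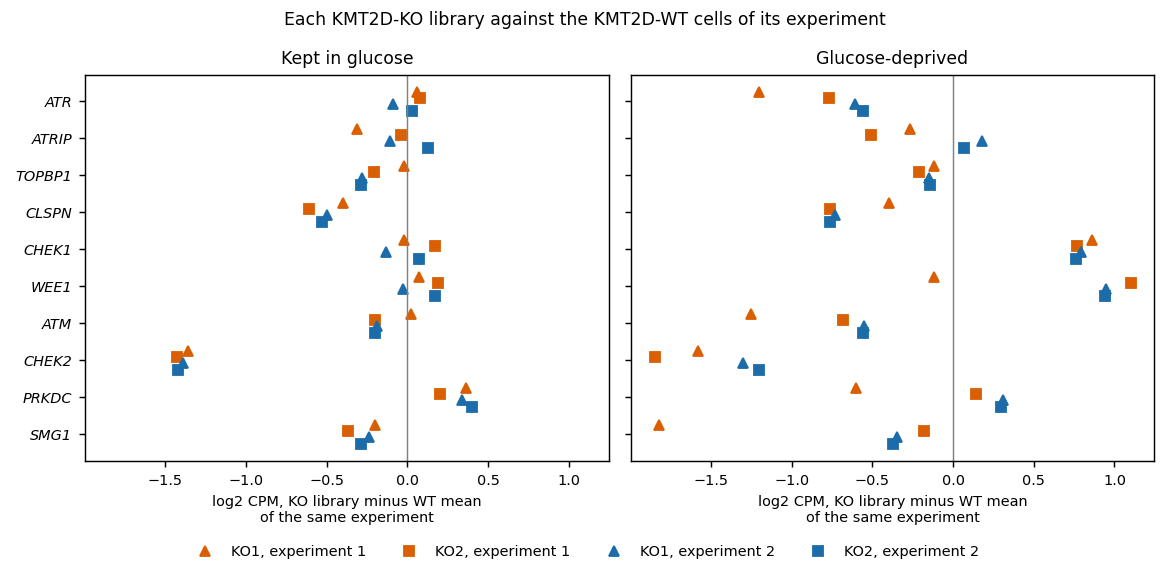
Log2 CPM of each KMT2D-KO library minus the mean of the KMT2D-WT libraries of its experiment (horizontal axis) for the 10 genes in glucose (left) and without glucose (right), with colour for the experiment and shape for the labelled line. Without glucose, the library labelled KO1 of experiment 1 lay at -1.82 for SMG1, -0.60 for PRKDC and -0.12 for WEE1, apart from the other 3 libraries, while the 4 libraries lay between 0.76 and 0.86 for CHEK1.

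The response to glucose deprivation was then compared within each genotype, in 1 fit of all 14 libraries. These comparisons use libraries of the ones above, and in experiment 2 the +Glc libraries had both mates counted and the -Glc libraries did not. In KMT2D-WT cells CLSPN and CHEK1 were lower without glucose, 2 of 10 genes beside 2.08% of all genes, and none was higher, beside 1.22%. CLSPN was 1.37-fold lower (log2 -0.45 ± 0.10, adjusted p = 0.0367) and CHEK1 1.35-fold lower (-0.43 ± 0.09, adjusted p = 0.0276). Both calls were lost with length offsets (adjusted p = 0.0964 and 0.0555) and in several fits with 1 library left out (adjusted p up to 0.167 and 0.138). With pairs summed 0.0570% of all genes were called lower and 0.0475% higher, and neither CLSPN (-0.44, adjusted p = 0.261) nor CHEK1 (-0.44, adjusted p = 0.247) was.

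In KMT2D-KO cells, 4 of 10 genes were lower without glucose, beside 21.8% of all genes, and 3 of 10 were higher, beside 20.8%. ATM was 1.72-fold lower (log2 -0.78 ± 0.11, adjusted p = 3.07e-04), ATR 1.59-fold (-0.67 ± 0.10, adjusted p = 3.10e-04) and CLSPN 1.50-fold (-0.59 ± 0.09, adjusted p = 3.81e-04). CHEK1 was 1.26-fold higher (log2 0.33 ± 0.08, adjusted p = 0.00513), where in KMT2D-WT cells it was lower. These 4 calls held in every fit with 1 library left out. With pairs summed, 13.2% of all genes were called lower and 11.4% higher, and these 4 genes of the 10 were called: ATM (-0.80, adjusted p = 0.00358), ATR (-0.69, adjusted p = 0.00333), CLSPN (-0.54, adjusted p = 0.00558) and CHEK1 (0.33, adjusted p = 0.0330).

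WEE1 was 1.54-fold higher in deprived KMT2D-KO cells (log2 0.62 ± 0.19, adjusted p = 0.0218), a call lost in 4 of the fits with 1 library left out and with pairs summed (0.60, adjusted p = 0.0764). ATRIP (log2 -0.32 ± 0.12, adjusted p = 0.0496) and CHEK2 (0.33 ± 0.12, adjusted p = 0.0490) lay at the threshold, and their calls were lost in 10 and 12 such fits and with pairs summed (adjusted p = 0.0975 and 0.131). In KMT2D-WT cells CHEK2 had a value of 0.34 ± 0.14 (adjusted p = 0.146), with no overlap between the conditions. TOPBP1, PRKDC and SMG1 were called in neither genotype. Without the library labelled KO1 of experiment 1, SMG1 (-0.30, adjusted p = 0.0300) and PRKDC (-0.18, adjusted p = 0.0457) were called lower in deprived KMT2D-KO cells, but with pairs also summed neither was (adjusted p = 0.121 and 0.205).

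**Figure D4:**
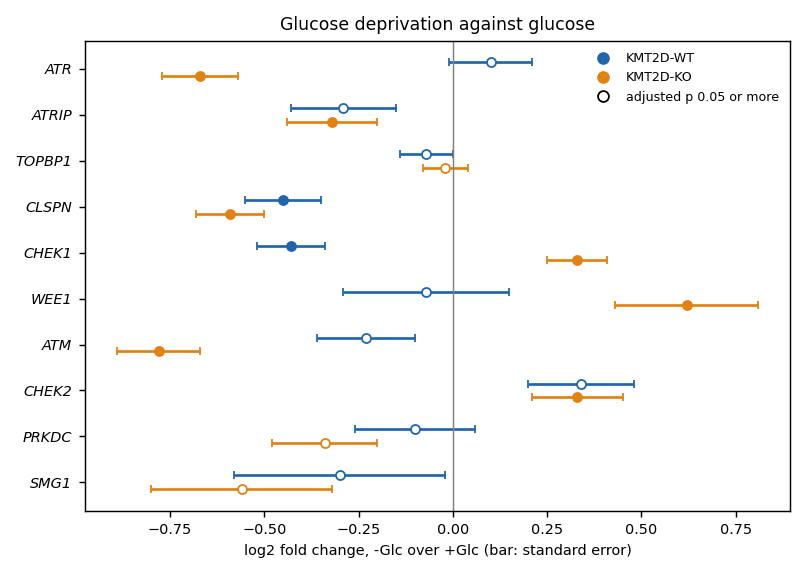
Log2 fold change of -Glc over +Glc cells (horizontal axis, bar: standard error) for the 10 genes in KMT2D-WT (blue) and KMT2D-KO cells (orange), with filled points for adjusted p under 0.05. CHEK1 lay at -0.43 in KMT2D-WT and at 0.33 in KMT2D-KO cells, and ATR at 0.10 and -0.67.

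The genes whose log2 CPM followed that of ATR most closely over the 14 libraries, among 9495 others with a mean of at least 10 CPM, were ZKSCAN8 (Pearson r = 0.991), DPY19L3 (0.987), POLQ (0.986), TMEM170A (0.986) and ATM (0.985). The libraries share the difference between experiments. After removing the mean of each experiment and glucose condition, the correlation over the 14 libraries was 0.96 between ATR and ATM and -0.90 between ATR and CHEK1. Before that step it was 0.11 between ATR and CHEK1. The difference between genotypes was not removed, so the values after that step in part restate the KMT2D-KO comparisons above. These are descriptions of 14 points that include 2 close pairs.

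The partners of these kinases were described from lists of genes chosen for their role. The counts of each list are to be read against all genes tested without glucose, of which 24.9% were lower and 25.9% higher in KMT2D-KO cells, and 7.52% and 8.99% with pairs summed. Without glucose, of 16 tested genes that act with ATR (RPA, the clamp and its loader, fork protection), 2 were lower and 2 higher in KMT2D-KO cells (median log2 fold change 0.10). RAD17, the clamp loader, was 2.03-fold lower (log2 -1.02 ± 0.07, adjusted p = 8.54e-05), from 54.5 ± 22.9 CPM (SD, n = 3) to 24.1 ± 12.1 CPM (n = 4), and was also lower in glucose (-0.56, adjusted p = 0.00235). The change of its KMT2D-KO effect with glucose was called (adjusted p = 0.0328), but not with pairs summed (-0.44, adjusted p = 0.198). ETAA1, an ATR activator, had a log2 fold change of -0.91 ± 0.15 (adjusted p = 0.00234), and of -0.06 in glucose (adjusted p = 0.848). That change was not called (adjusted p = 0.0543). RAD1, a clamp subunit, had 0.53 ± 0.07 without glucose (adjusted p = 8.49e-04) and 0.64 in glucose (adjusted p = 0.00157). With pairs summed, 1 of the 16, RAD17 (-1.01, adjusted p = 0.0209), was called lower and 0 higher.

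Of 9 genes that act with ATM at breaks, 4 were lower and 3 higher without glucose (median -0.21), beside 24.9% and 25.9% of all genes. H2AX, the histone that ATM phosphorylates, was 2.57-fold lower (log2 -1.36 ± 0.28, adjusted p = 0.00599), and its KMT2D-KO effect in glucose was -0.25 (adjusted p = 0.144). That change was itself called (adjusted p = 0.0342), but not with pairs summed (-1.01, adjusted p = 0.172). NBN, a subunit of the MRN sensor, was higher by 0.53 ± 0.08 (adjusted p = 0.00202), and RNF168, a ubiquitin ligase at breaks, lower at -0.49 ± 0.13 (adjusted p = 0.0174). With pairs summed, 0 of the 9 were called, beside 7.52% of all genes lower and 8.99% higher. Of 7 end-joining partners of DNA-PK, 1 was lower and 1 higher without glucose, against 1 and 0 with pairs summed. XRCC4 was the lower one (-0.84 ± 0.10, adjusted p = 5.52e-04) and was also lower in glucose (-0.61, adjusted p = 0.0220). The Ku subunit XRCC6 was the higher one (0.36 ± 0.08, adjusted p = 0.00937), with 0.05 in glucose (adjusted p = 0.647). That change was called (adjusted p = 0.0463), but not with pairs summed (0.33, adjusted p = 0.239).

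Among 15 targets of the checkpoint kinases, 6 were lower and 3 higher (median -0.18), beside 24.9% and 25.9% of all genes. CDKN1A, the p21 inhibitor of cyclin-dependent kinases, had a log2 fold change of -1.31 ± 0.26 (adjusted p = 0.00536), and of -0.83 in glucose (adjusted p = 0.143). That change was not called (adjusted p = 0.620). CDC25C, a phosphatase that CHK1 and CHK2 restrain, had -0.97 ± 0.31 without glucose (adjusted p = 0.0345) and -0.92 in glucose (adjusted p = 4.41e-04). PKMYT1, which acts beside WEE1 on CDK1, was 1.77-fold higher without glucose (0.82 ± 0.06, adjusted p = 1.12e-04) and was also higher in glucose (0.38, adjusted p = 0.0142). That change was itself called (adjusted p = 0.0268), but not with pairs summed (0.45, adjusted p = 0.178). With pairs summed, 1 was called lower and 2 higher, beside 7.52% and 8.99%. PKMYT1 was still called (adjusted p = 0.0231), but CDKN1A (adjusted p = 0.0823) and CDC25C (adjusted p = 0.218) were not. In the nonsense-mediated decay list 4 of 9 genes were lower and 2 higher (median -0.23). UPF1, the substrate of SMG1, had -0.70 ± 0.07 without glucose (adjusted p = 3.76e-04) and -0.09 with it (adjusted p = 0.490), and that change was itself called (adjusted p = 0.00996), but not with pairs summed (-0.60, adjusted p = 0.0914). SMG5 was higher without glucose (0.48 ± 0.10, adjusted p = 0.00577) and in glucose (0.64, adjusted p = 8.91e-04). With pairs summed, 1 of the 9 genes, UPF1 (-0.69, adjusted p = 0.0348), was lower and 0 higher without glucose.

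Of 7 relatives and assembly factors of these kinases, 2 were lower and 3 higher (median -0.15), beside 24.9% and 25.9% of all genes, and with pairs summed 0 and 2, beside 7.52% and 8.99%. TELO2 (0.88 ± 0.10, adjusted p = 6.29e-04) and RUVBL1 (0.75 ± 0.09, adjusted p = 6.92e-04), which help to assemble the kinases, were higher. TRRAP, a relative without kinase activity, was lower (-0.81 ± 0.23, adjusted p = 0.0227). In glucose TELO2 (0.78), RUVBL1 (0.56) and TRRAP (-0.80) were all called too. Their change with glucose was not called (adjusted p of at least 0.389). Several of the 10 genes also vary through the cell cycle. Without glucose, S phase genes were 4 lower and 5 higher of 20 (median 0.02), with CDT1 at 0.98 ± 0.06 and MCM4 at 0.93 ± 0.05 among the higher and RRM2 at -0.97 ± 0.32 among the lower. G2 and mitosis genes were 13 lower and 1 higher of 19 (median -0.82), with MKI67 at -1.72 ± 0.06, NDC80 at -1.25 ± 0.38 and BUB1 at -1.02 ± 0.30. With pairs summed these counts were 1 and 3 for S phase and 5 and 0 for G2 and mitosis genes. CDT1 (adjusted p = 0.0193), MCM4 (0.0185) and MKI67 (0.0145) were then still called, but RRM2 (0.241), NDC80 (0.208) and BUB1 (0.191) were not. In glucose, 8 of 20 G2 and mitosis genes were lower and 1 higher (median -0.41), beside 11.7% and 13.0% of all genes. Of 20 S phase genes, 7 were lower and 3 higher there (median -0.17). MKI67 (-1.17), NDC80 (-0.56), BUB1 (-0.68) and RRM2 (-0.88) were called lower there and MCM4 (0.46) higher, and CDT1 (-0.17) was not called. The change with glucose was called for CDT1 (adjusted p = 7.42e-04), MKI67 (0.0279) and MCM4 (0.0310), and with pairs summed for CDT1 alone (0.0200). The part of the cell cycle in the values of the 10 genes was not tested.

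**Figure D5:**
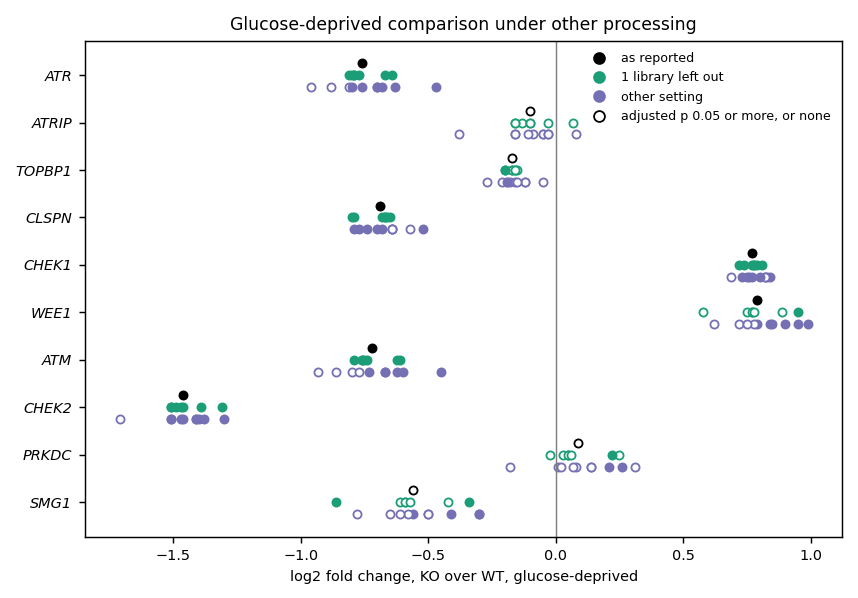
Log2 fold change of KMT2D-KO over KMT2D-WT cells without glucose (horizontal axis) for the 10 genes, as reported (black), with 1 library left out (green) and under other settings (purple), with filled points for adjusted p under 0.05. The values with 1 library left out ran from -0.81 to -0.64 for ATR, from 0.72 to 0.81 for CHEK1, from -1.51 to -1.31 for CHEK2 and from 0.58 to 0.95 for WEE1.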

How the data were processed

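The authors mapped polyA RNA-seq reads to GRCh38 with HISAT2 and deposited unnormalized counts per gene name, made with featureCounts 2.0.3 on the Ensembl 102 annotation without strand (per the file headers). By default a read that overlaps more than 1 gene is counted for none. Both mates were counted in 4 of 14 libraries. Total counts, from 15669154 to 62968057 per library, set the counting error, and the spread between libraries is larger.

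From these counts, edgeR 4.0.16 (R 4.3.3) filtered genes by filterByExpr at a minimum count of 10, scaled them by TMM and tested them with its quasi-likelihood F test, and calls were Benjamini-Hochberg adjusted p under 0.05 over all genes tested. Each glucose condition was fitted alone with experiment as covariate. The change of the KMT2D-KO effect with glucose was fitted on 14 libraries with experiment within each condition, and the glucose effects with 1 experiment term. The methods name DESeq2 and state no covariate, and DESeq2 (version 1.42.0) without and with the covariate were alternatives. Libraries of 1 experiment deviated together: over 9496 genes, experiment 2 minus experiment 1 had r = 0.97 between KMT2D-WT and KMT2D-KO cells with glucose and 0.91 without. Standard errors are those of the log2 fold change. Log2 CPM used a prior count of 2.

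The members and lists were chosen with earlier results of these data known. Named genes are KMT2D, the 10 members, in each list the up to 3 called genes with the largest change without glucose, the 5 genes most like ATR, and genes overlapping a member or pseudogenes named after it. The result of 1 gene that this rule names is not reported here. Promoter sequences are from RefSeq (GRCh38.p14), transcript lengths from GENCODE 44. Alternatives were other normalizations, filters, covariates, single experiments, length offsets, halved both-mate counts, summed close pairs and each library left out. Summed close pairs in the glucose deprivation comparisons, and summed close pairs without the -Glc library labelled KO1 of experiment 1, were chosen after seeing the data.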

Additional observations from a re-analysis of the deposited data

Results flagged for a closer look

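ATR and CHEK1 were picked out because the KMT2D-KO effect differed between the 2 glucose conditions by a test of the difference itself. ATR had a log2 fold change of 0.02 in glucose and -0.76 without it (difference -0.75, adjusted p = 0.0102 by edgeR's quasi-likelihood test), with lower levels in 4 of 4 KMT2D-KO libraries without glucose relative to the KMT2D-WT cells of their experiment. CHEK1 had 0.02 and 0.77 (difference 0.78, adjusted p = 0.00277), with higher levels in 4 of 4 libraries. With close pairs summed, the difference was still called for CHEK1 (0.79, adjusted p = 0.0471) and not for ATR (-0.81, adjusted p = 0.0688).

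CLSPN was picked out because 1 of the 4 KMT2D-KO libraries without glucose, that labelled KO2 of experiment 1 at 60.3 CPM, lay apart from the others at 77.3 to 79.2 CPM. The gap was 0.896 of the range, above Dixon's critical value for 4 samples. It was the 1 of 20 groups of 4 libraries tested in this way, and chance picks about 1 in 20. The check pools the experiments, which differ in level, and counts a close pair as separate libraries. Against the KMT2D-WT cells of its own experiment, the library labelled KO2 of experiment 1 lay at -0.76 on the log2 scale. The libraries of experiment 2 lay at -0.73 and -0.76 and that labelled KO1 of experiment 1 at -0.40, so on this scale another library stood apart.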

How the results depend on the processing

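Of 1030 values of the 10 genes under alternative processing, 839 kept their direction and side of the threshold, 122 lost a call, 29 gained a call and 40 changed sign, all of them in comparisons where the gene had not been called. The causes were not tested.

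The experiment was the replicate block. With no replicate block, 3659 genes were called in place of 8521 between genotypes without glucose, 971 in place of 5042 in glucose, 70 in place of 2105 for the change of the effect, 23 in place of 616 for glucose deprivation in KMT2D-WT and 3220 in place of 7956 in KMT2D-KO cells. Of the 10 genes, 2, 1, 0, 0 and 1 were called in these comparisons, in place of 6, 4, 2, 2 and 7, and the value in glucose was -0.15 for ATR and -0.05 for CHEK1. DESeq2 without the covariate called 4821 genes and 3 of the 10 without glucose, 2572 and 1 in glucose, with -0.13 for ATR and -0.03 for CHEK1. DESeq2 with the covariates called 3473 genes for the change of the effect and 3706 for deprivation in KMT2D-WT cells.

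Experiment 1 alone, with 1 KMT2D-WT library, called 0 genes by edgeR without glucose (2134 at an unadjusted p under 0.05), 304 in glucose, 0 for the change of the effect (400), 0 for deprivation in KMT2D-WT (141) and 20 in KMT2D-KO cells, and 0 of the 10 genes in each. PRKDC was then -0.18 without glucose, TOPBP1 -0.08 for the change of the effect and PRKDC 0.02 for deprivation in KMT2D-WT cells. Experiment 2 alone called 12888 genes without glucose, where its groups are close pairs, and 2336 genes and 2 of the 10 in glucose. It gave 0.08 for ATRIP without glucose, and -0.04 for ATR, 0.00 for ATRIP and -0.04 for CHEK1 in glucose. With close pairs summed, 2785 genes and 3 of the 10 were called without glucose, 258 and 1 for the change of the effect, 22 and 0 for deprivation in KMT2D-WT (3008 genes and 3 of the 10 at an unadjusted p under 0.05 by edgeR) and 5191 and 4 in KMT2D-KO cells. With close pairs summed and without the -Glc library labelled KO1 of experiment 1, 11254 genes and 9 of the 10 were called without glucose, 1332 and 3 for the change of the effect and 6298 and 5 for deprivation in KMT2D-KO cells.

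Length offsets called 4 of the 10 for the change of the effect and 0 for deprivation in KMT2D-WT cells. They gave 0.03 for ATRIP and 0.02 for CHEK2 for the change of the effect, 0.01 for WEE1 in deprived KMT2D-WT and 0.13 for TOPBP1 in deprived KMT2D-KO cells. They also raised the share of higher genes among the calls from 42.0% to 58.8% for the change of the effect and from 36.9% to 48.3% for deprivation in KMT2D-WT cells (62.7% by DESeq2). RLE and DESeq2 both gave 0.02 for ATRIP and 0.01 for CHEK2 for the change of the effect and 0.04 for TOPBP1 in deprived KMT2D-KO cells, and with RLE 1 of the 10 was called for deprivation in KMT2D-WT cells. With no filter on low counts, 4 of the 10 were called for the change of the effect, 3324 genes were called for deprivation in KMT2D-WT cells, and CHEK1 was 0.00 in glucose. Experiment within each glucose condition called 3054 genes for deprivation in KMT2D-WT cells.

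Leaving out each library gave from 6031 to 12448 called genes and from 5 to 9 of the 10 without glucose, from 2142 to 5048 and from 2 to 5 in glucose, from 788 to 4230 and from 1 to 4 for the change of the effect, from 44 to 2329 and from 0 to 2 for deprivation in KMT2D-WT, and from 5871 to 9838 and from 4 to 8 in KMT2D-KO cells. The smallest count for the change of the effect was without the KMT2D-WT library of experiment 1 without glucose, and the largest was without the library labelled KO1 of that experiment. Values that changed sign ran from -0.16 to 0.07 for ATRIP and from -0.02 to 0.25 for PRKDC without glucose, and from -0.04 to 0.06 for ATR and from -0.05 to 0.08 for CHEK1 in glucose. For the change of the effect they ran from -0.09 to 0.19 for ATRIP and from -0.10 to 0.16 for CHEK2, and for TOPBP1 in deprived KMT2D-KO cells from -0.04 to 0.05. Where an experiment is left with 1 library of a genotype, that library is assumed to vary like the others. The lowest count of the 10 genes in a library was 86, for CHEK2, which gives a counting error of 10.8%, and for the other 9 genes the lowest count was at least 201 (at most 7.05%). The effect of depth on the calls was not tested.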
